A study of Mus musculus with 8 samples.

Results

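The circadian clock genes examined here are the 10 genes Arntl, Clock, Npas2, Per1, Per2, Per3, Cry2, Nr1d1, Dbp and Nfil3, chosen by gene symbol from 19505 named genes on the array. Each is read by 1 of the 22206 probe sets, and all 10 lay above a background level of 5.64 (log2), under which 95% of the values of olfactory receptor genes lie, which the gut is not known to use. RNA came from frozen duodenum of 8 untreated mice, measured on mouse Clariom S arrays. In 4 mice (KO, IκBαIEC-KO, Villin-Cre x floxed IκBα) the gene Nfkbia, which encodes the NF-κB inhibitor IκBα, was deleted from its promoter through its first exons. The other 4 (WT) were littermates labelled wild type, 1 for each knockout, and no source used here says whether they carried floxed alleles. Villin drives Cre in the intestinal epithelium, while the RNA was taken from homogenized tissue that holds other cells too. Pairs 1 to 4 were 8, 11, 8 and 9 weeks old. Both mice of pair 1 were male and both of pair 2 female. In pair 3 the knockout was male and its sibling female, and in pair 4 the reverse. No source used here gives the hour at which tissue was taken.

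The clock is a feedback loop of transcription that runs in nearly every cell. BMAL1, encoded by Arntl, pairs with CLOCK or with its relative NPAS2 and switches on genes through a DNA element called the E-box, among them the Per and Cry genes, whose proteins return to block the pair, and Nr1d1 and Dbp. NR1D1 (REV-ERBα) in turn represses Arntl, Npas2 and Nfil3 through a second element, the RORE. DBP and NFIL3 act against each other on another, the D-box. In the gut this loop times nutrient transport, fat uptake and the handling of foreign compounds, and clock transcripts in a tissue vary with the time of day.

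Knockout duodenum had more Npas2 and Nfil3 RNA and less Cry2 and Nr1d1 RNA than sibling duodenum, and the other 6 clock genes did not pass the test. Thus 2 of the 10 genes rose and 2 fell, where 5.86% of all probe sets were called (3.16% higher and 2.7% lower in knockouts). The test was limma with the sibling pair as a block and Benjamini-Hochberg adjustment over all probe sets, at a threshold of 0.05. The median size of the 10 differences was 0.484 on the log2 scale, against 0.135 over all probe sets. The 10 were chosen with earlier results of these data known, so these counts and sizes do not stand as a test. All 10 also lay above background, against 15055 of all 22206 probe sets. In these bulk samples, fewer cells of a type and less RNA per cell cannot be told apart. Knockout and wild-type values did not overlap for 5 of the 10 (33.1% of all probe sets), and 5 of the 10 had 1 direction in all 4 pairs (34.4%). Without the block limma called 6 of the 10, adding Arntl and Per1 (34.4% of all probe sets). That fit counts siblings as independent. Their distances from the group mean were opposite (r from −0.913 to −0.87), so its p-values are too small. With the block, leaving out pair 1, 2 or 4 left 0 of the 10 with a call (4, 4 and 6 had an unadjusted p below 0.05). Leaving out pair 3 left 3. The 1301 calls over all probe sets dropped to between 145 and 459 in those fits. They hold fewer samples, so a lost call does not show the weight of a pair. Over these fits the mean difference ran from 0.52 to 0.65 for Npas2 and 0.56 to 0.7 for Nfil3. It ran from −0.54 to −0.46 for Cry2 and −1.22 to −0.78 for Nr1d1.

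**Figure D1:**
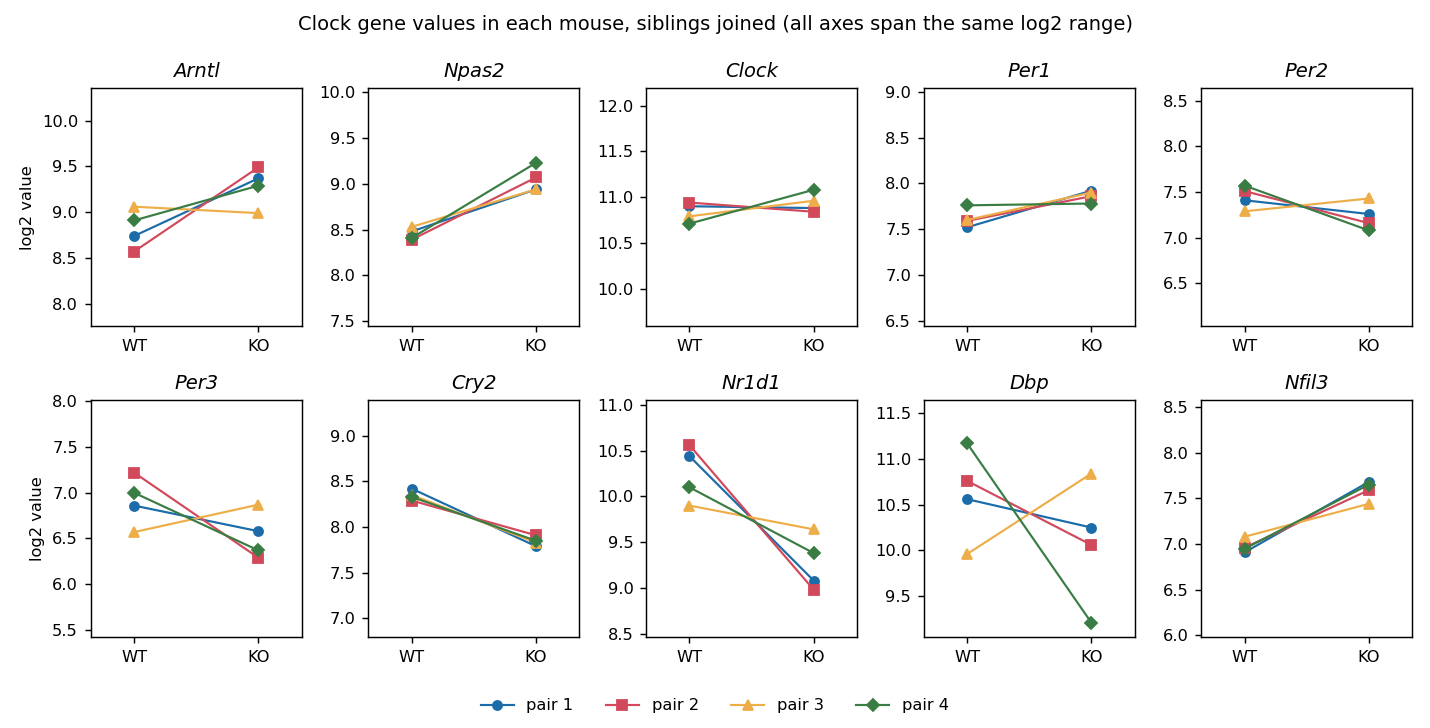
Deposited log2 value of each clock gene in every mouse (y axis; x axis WT or KO), with siblings joined by a line and pairs 1 to 4 in their own colour and marker. The lines of Npas2, Nfil3 and Per1 all rise (Per1 by 0.02 in pair 4), and those of Cry2 and Nr1d1 all fall. Those of Dbp cross, with pair 3 rising from 9.96 to 10.84 and pair 4 falling from 11.17 to 9.21.

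The deposited values mostly differed little between sibling pairs in their means, with a median SD of 0.0175 over all probe sets. For the clock genes the 4 pair means lay within 0.015 (Cry2) to 0.22 (Dbp) of each other. Values are therefore set below mainly against the sibling. With pair means so alike, groups without overlap largely restate 1 direction in all 4 pairs and are not separate support. The deleted gene checked the labels: Nfkbia fell by 2.65 ± 0.918 (log2, SD, n = 4 pairs, limma adjusted p = 0.013). Its differences were −2.93, −3.26, −1.29 and −3.13 in pairs 1 to 4. Over 9 enterocyte markers the median difference was −0.39, −0.23, −0.2 and −0.7 in pairs 1 to 4, with 1 called lower. They included Vil1 (mean log2 value 12.31 in KO and 12.66 in WT), which was lower in 4 of 4 pairs. Alpi (13.1 and 13.09) was lower in pair 1 alone (−0.67). The ileal genes Fabp6 (9.62 and 9.21) and Slc10a2 (8.65 and 8.68) were also above background, and Fabp6 rose (0.41 ± 0.0529, limma adjusted p = 0.0272). Fabp6 values were 10.05, 10, 9.22 and 9.22 in KO and 9.65, 9.66, 8.78 and 8.76 in WT, so the groups overlapped. Slc10a2 was likewise higher in pairs 1 and 2 than in pairs 3 and 4, in both groups. RNA integrity numbers differed between siblings (KO minus WT) by 0.9, −0.4, 0.9 and −0.7. Markers of tissue next to the gut differed as well. Over 6 adipocyte markers the median difference was 3.13, 2.78, 0.305 and 0.005 in pairs 1 to 4, with mean levels of 6.97 to 8.76 in KO and 5.62 to 7.09 in WT. Over 6 pancreatic acinar markers it was −0.53, 0.185, −4.52 and −4.02, with levels of 6.21 to 8.12 in KO and 7.89 to 10.66 in WT. None of these 12 was called. The adipocyte markers with the largest mean difference were Adipoq (2.75 ± 2.58) and Car3 (2.45 ± 3.04), while Lep averaged 5.02 in KO and 4.72 in WT, below background. The acinar markers with the largest were Cel (−2.88 ± 2.27) and Cpb1 (−2.65 ± 2.89). Over 6 smooth muscle markers, Cnn1 and Tagln among them, the medians were 0.22, 0.02, −0.575 and −0.63 in pairs 1 to 4, and over 3 B cell markers, Cd79a and Ms4a1 among them, 0.86, 0.76, −0.15 and −0.05. None of those 9 was called. Over 4 T cell markers the medians were 0.01, −0.115, −0.24 and −0.935 in pairs 1 to 4. Cd4 rose (0.39 ± 0.134, limma adjusted p = 0.0427). Cd3e (−0.3 ± 0.312), Cd3g (−0.56 ± 0.362) and Cd8a (−0.34 ± 0.57) had lower means in knockouts without a call. The macrophage genes Csf1r (−0.09) and Adgre1 (−0.11) were not called, nor were the enteric nervous genes Elavl4 (−0.21) and Sox10 (−0.17), both below background. Uchl1, the other enteric nervous marker measured, was above background and differed by −0.03, with 2 pairs higher and 2 lower. The part of these cells in the clock differences was not tested.

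Of the activating genes, Npas2 encodes the CLOCK relative that can take its place beside BMAL1. Its log2 values were 8.94, 9.07, 8.94 and 9.23 in the knockouts of pairs 1 to 4 and 8.48, 8.39, 8.53 and 8.41 in their siblings. Every knockout was above every wild type. Npas2 rose by 0.59 ± 0.192 (log2, SD, n = 4 pairs), which is 1.51-fold (limma adjusted p = 0.0234), and 1.89% of probe sets had a larger mean rise. The rise averaged 0.57 over pairs 1 and 2 and 0.61 over pairs 3 and 4. Its adjusted p was 0.0399 with sex and 0.0341 with RNA integrity added to the fit.

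Arntl, which encodes BMAL1, had log2 values of 9.37, 9.49, 8.99 and 9.29 in knockouts and 8.74, 8.57, 9.06 and 8.91 in siblings. The knockout was above its sibling in pairs 1, 2 and 4 (0.63, 0.92 and 0.38) and slightly below it in pair 3 (−0.07), and the groups overlapped. The mean difference of 0.46 ± 0.419 did not pass the test (limma adjusted p = 0.12, 95% interval 0.09 to 0.84). It averaged 0.78 in pairs 1 and 2, where the adipocyte and B cell markers differed. In pairs 3 and 4, where the acinar and smooth muscle markers differed, it averaged 0.15. The part of these tissues in it was not tested. Clock, whose product is the usual partner of BMAL1, showed little difference. Its values were 10.88, 10.84, 10.96 and 11.08 in knockouts and 10.9, 10.94, 10.79 and 10.71 in siblings, with 2 pairs up and 2 down. The mean difference was 0.1 ± 0.21 (limma adjusted p = 0.519), with a 95% interval of −0.13 to 0.34, and it was −0.09 when arrays were centred on housekeeping genes.

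The repressing side holds the Per and Cry genes and Nr1d1. Cry2, a cryptochrome that blocks the CLOCK and BMAL1 pair, gave the most even result. Its log2 values were 7.79, 7.91, 7.83 and 7.85 in knockouts and 8.42, 8.29, 8.35 and 8.33 in siblings. The groups were far apart, since the highest knockout lay 0.38 below its own sibling, the smallest difference of any pair. Cry2 fell by 0.5 ± 0.103 (1.42-fold, limma adjusted p = 0.0216). It averaged −0.5 over pairs 1 and 2 and −0.5 over pairs 3 and 4. With sex or RNA integrity in the fit its adjusted p was 0.053 and 0.0551.

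Nr1d1, the repressor that acts on Arntl, Npas2 and Nfil3, had the largest change of the 10. Values were 9.08, 8.98, 9.64 and 9.38 in knockouts and 10.44, 10.56, 9.9 and 10.1 in siblings. All knockouts were below all wild types, and the differences of −1.36 and −1.58 in pairs 1 and 2 were larger in size than those of −0.26 and −0.72 in pairs 3 and 4. Nr1d1 fell by 0.98 ± 0.603 (1.97-fold, limma adjusted p = 0.0495), and 0.666% of probe sets fell further. The call lies at the threshold: the adjusted p was 0.0903 with sex, 0.0995 with RNA integrity and 0.0751 with trend and robust variance. The mean was −1.47 over pairs 1 and 2, where the medians of adipocyte and B cell markers were higher in knockouts. It was −0.49 over pairs 3 and 4, where those of acinar and smooth muscle markers were lower in knockouts. The part of these tissues in the fall of Nr1d1 was not tested.

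The 3 Period genes did not move as one. Per1, which also answers to stress hormones and cell signalling, was higher in 4 of 4 knockouts, at 7.92, 7.86, 7.9 and 7.78 against 7.52, 7.59, 7.6 and 7.76. The gap closed to 0.02 in pair 4, and the mean of 0.25 ± 0.162 did not pass the test (limma adjusted p = 0.128). Per2 had values of 7.26, 7.16, 7.43 and 7.08 in knockouts and 7.41, 7.51, 7.29 and 7.57 in siblings. It was lower in 3 pairs and higher in pair 3, and its mean difference of −0.21 ± 0.273 did not pass (limma adjusted p = 0.277). Per3 was likewise lower in pairs 1, 2 and 4 and higher in pair 3, with 6.58, 6.29, 6.87 and 6.37 in knockouts and 6.86, 7.22, 6.57 and 7 in siblings. Its mean difference was −0.39 ± 0.528 (limma adjusted p = 0.244). After centring on housekeeping genes Per2 and Per3 were called lower (adjusted p = 0.0291 and 0.0402), a scaling under which the median difference over the whole array went from −0.015 to −0.213 and 33.8% of probe sets were called. Of the 8 housekeeping genes used, Gusb itself rose before centring (0.37 ± 0.121, limma adjusted p = 0.0449).

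Of the output genes, Nfil3 encodes a D-box repressor that is known to shape fat uptake in the intestinal epithelium. Its values were 7.68, 7.59, 7.44 and 7.65 in knockouts and 6.91, 6.96, 7.08 and 6.95 in siblings. Each knockout lay above each wild type. Nfil3 rose by 0.62 ± 0.179 (1.53-fold, limma adjusted p = 0.0206), the largest rise of the 10, and 1.73% of probe sets rose more. The rise averaged 0.7 in pairs 1 and 2 and 0.53 in pairs 3 and 4. Its adjusted p was 0.0402 with sex and 0.055 with RNA integrity in the fit.

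Dbp, the D-box activator opposed by NFIL3, was the most uneven. Values were 10.25, 10.06, 10.84 and 9.21 in knockouts and 10.56, 10.76, 9.96 and 11.17 in siblings. The differences were −0.31, −0.7 and −1.96 in pairs 1, 2 and 4 and 0.88 in pair 3, and the groups overlapped. The mean difference of −0.52 ± 1.17 did not pass the test (limma adjusted p = 0.437, 95% interval −1.48 to 0.43). Its 2 extreme pairs were those of unlike sex: the male was the knockout in pair 3 and the wild type in pair 4, so the male had the higher Dbp in both. With sex in the fit the mean difference was the same and its limma adjusted p = 0.062. The sex term is set by pairs 3 and 4 alone, so it takes up their spread and cannot move the mean. With RNA integrity in the fit it was −0.73 (limma adjusted p = 0.173). The knockout also had the higher RNA integrity number in pair 3 and the lower in pair 4, so the 2 factors cannot be told apart there.

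**Figure D2:**
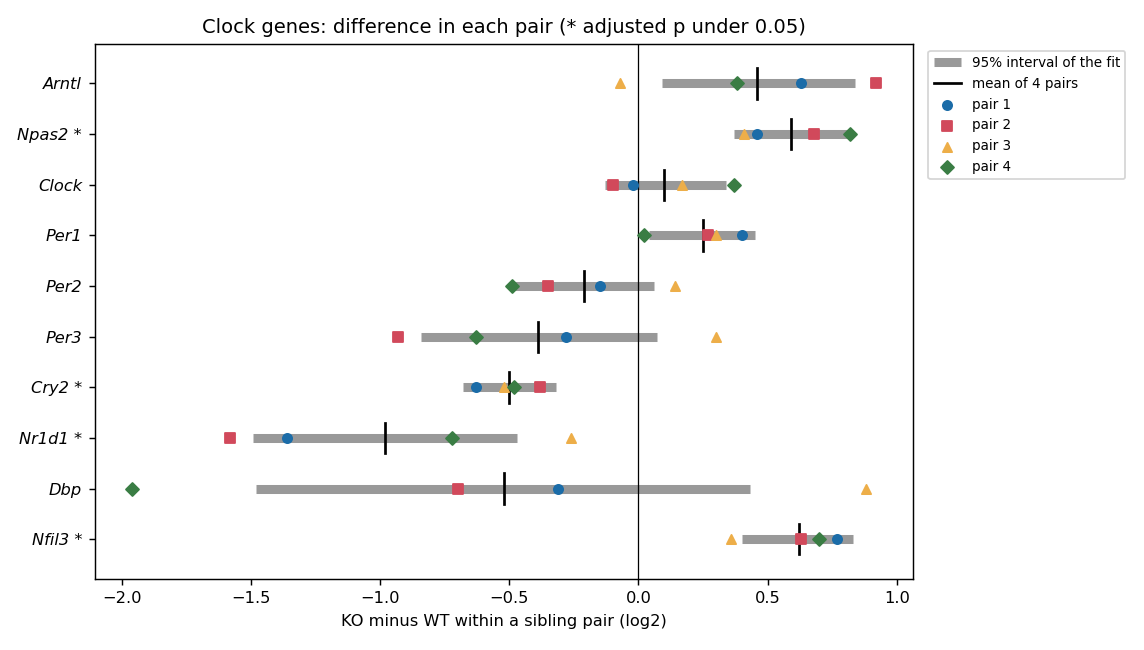
Difference between knockout and wild-type sibling (x axis, log2) for each clock gene (y axis), with pairs 1 to 4 as markers, the mean of 4 pairs as a black line and the 95% interval of the limma fit as a grey bar. An asterisk marks an adjusted p under 0.05. The intervals of Npas2 and Nfil3 lie above 0 and those of Cry2 and Nr1d1 below it. Those of Arntl (0.09 to 0.84) and Per1 (0.04 to 0.45) also lie above 0, without an asterisk. Pair 3 lies across 0 from the other pairs for Arntl, Per2, Per3 and Dbp.

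Promoter sequence was examined for the elements named above, in the 300 bases around each start site listed by RefSeq (GRCm38.p6), from 250 before it to 50 after it. A promoter was matched for 9 of the 10 genes, in 13 windows. The search covered both strands for the E-box CACGTG, the D-box TTANGTAA, the RORE spelled TAGGTCA or TGGGTCA, the κB element of NF-κB (GGGA and TCC with any 3 bases between them), and the cyclic AMP element TGACGTCA. Of 32851 promoters in the table, 7.15% held the E-box, 2.32% the D-box, 6.45% the RORE, 4.59% the κB element and 1.79% the cyclic AMP element. A match is a description of the letters and not a bound site. The RORE was matched in Nfil3 and Arntl, which REV-ERBα is known to repress, and the κB element in Cry2. These sequences are shown because Nfil3 rose, Arntl had a higher mean and Cry2 fell in the knockouts. Capitals mark the RORE in the first pair and the κB element in Cry2, and each run is written 5′ to 3′ on the strand of its gene. Arntl is shown by a 30-base stretch at chr7:113207530-113207559 (plus strand), where the element begins 31 bases into the transcript from the second listed start. Nfil3 is shown by the 250 bases before its start, chr13:52981040-52981289 (minus strand), with the element from position −12 to −6. Cry2 is shown likewise, chr2:92434070-92434319 (minus strand), where 2 overlapping matches on opposite strands cover −117 to −107.
Arntl: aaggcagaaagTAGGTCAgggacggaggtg
Nfil3: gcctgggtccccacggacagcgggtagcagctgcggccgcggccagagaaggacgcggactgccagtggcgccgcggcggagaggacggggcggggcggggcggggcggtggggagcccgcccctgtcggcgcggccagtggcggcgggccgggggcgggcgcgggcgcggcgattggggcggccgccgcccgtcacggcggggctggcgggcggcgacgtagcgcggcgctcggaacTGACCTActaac
Cry2: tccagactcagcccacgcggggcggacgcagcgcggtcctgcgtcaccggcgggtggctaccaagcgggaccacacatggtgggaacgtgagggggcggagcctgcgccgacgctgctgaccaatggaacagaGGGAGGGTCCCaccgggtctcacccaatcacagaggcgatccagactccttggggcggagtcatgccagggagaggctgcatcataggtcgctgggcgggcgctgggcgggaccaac
Per3 held 2 D-boxes, from −205 to −198 and from −158 to −151, and Per1 an E-box from −166 to −161 of its first listed start. The windows of Npas2, Clock, Nr1d1 and Dbp held none of the 5 elements as spelled here, which says nothing of elements outside these windows.

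The activating genes were then set against the repressing and output genes within each pair. The mean difference (KO minus WT) of Arntl and Npas2 was 0.54, 0.8, 0.17 and 0.6 in pairs 1 to 4, higher in the knockout each time. The mean of Per1, Per2, Per3, Cry2, Nr1d1 and Dbp was −0.39, −0.61, 0.14 and −0.71, lower in the knockout except in pair 3. Within this mean Per1 went the other way, higher in the knockout in all 4 pairs (0.4, 0.27, 0.3 and 0.02). The gap between the arms was 0.93, 1.41, 0.03 and 1.31, with a mean of 0.92 ± 0.629 (log2, SD, n = 4 pairs). Since the genes were chosen with earlier results known, it is given without a test. In pairs 1, 2 and 4 all 6 repressing and output genes lay below the mean of the activating pair, against 3 of 6 in pair 3. With Clock added to the activating arm the mean gap was 0.78, and with Nfil3 added to the outputs it was also 0.78. Centring on housekeeping genes moves both arms alike and left it at 0.92.

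**Figure D3:**
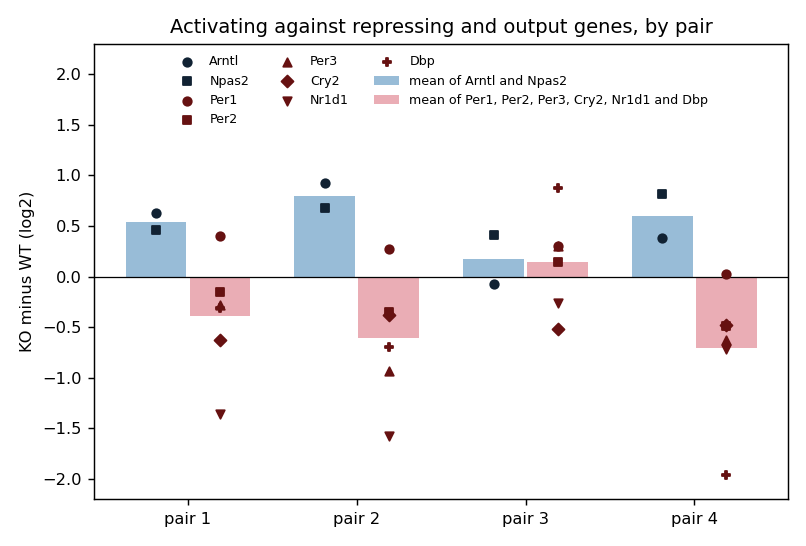
Mean difference between knockout and wild-type sibling (y axis, log2) in pairs 1 to 4 (x axis), with blue bars for Arntl and Npas2, red bars for Per1, Per2, Per3, Cry2, Nr1d1 and Dbp, and a marker for each gene. The arms stand apart by 0.93, 1.41 and 1.31 in pairs 1, 2 and 4 and by 0.03 in pair 3, where Dbp was 0.88 higher in the knockout.

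The pairs did not all show the same clock differences. In pair 3, 4 of the 10 (Arntl, Per2, Per3 and Dbp) went against the mean of the other pairs, near the 31.7% of all probe sets that did so. In pairs 1, 2 and 4 the counts were 1, 1 and 0 of the 10, against 31.6%, 30% and 33.3% of all probe sets. These counts were not tested. Nfkbia itself differed least in pair 3 (−1.29). Without pair 3, limma called Npas2 (adjusted p = 0.0458), Nr1d1 (0.0324) and Nfil3 (0.0278), while Cry2 had an adjusted p = 0.0654. The difference of Dbp was then −0.99, and without pair 4 it was −0.04.

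Other genes of the clock gave fewer calls. They and the genes above were chosen with earlier results of these data known, so the difference in counts is not a test. Of 12 further transcriptional regulators measured, 0 were called by limma (5.86% of all probe sets), with 9 at unadjusted p under 0.05 (6098 of all 22206 probe sets). Nr1d2 encodes REV-ERBβ, the close relative of NR1D1. Its difference of −0.52 ± 0.383 was −0.74, −0.79, 0.04 and −0.59 in pairs 1 to 4 (limma adjusted p = 0.0823). Tef, a D-box activator related to Dbp, differed by −0.4 ± 0.248 and was lower in 4 of 4 pairs (limma adjusted p = 0.0769). Cry1, the second cryptochrome, had the opposite sign to Cry2, at 0.35 ± 0.285 and higher in 4 of 4 pairs (limma adjusted p = 0.114), though it did not pass. Tipin, a partner of Timeless in DNA replication, differed by 0.43 ± 0.325. The others were Arntl2 (0.31), Rora (0.3), Bhlhe41 (0.21), Ciart (0.22), Bhlhe40 (−0.11), Hlf (−0.14), Timeless (−0.19) and Rorb (−0.27). Arntl2, Bhlhe41, Ciart, Hlf and Rorb averaged below background, so these differences lie in a range where the array reads little.

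Among 11 kinases, ubiquitin ligase parts and cofactors that set the stability or action of clock proteins, 1 rose and 1 fell, where 3.16% of all probe sets rose and 2.7% fell. Fbxl21, which encodes a ubiquitin ligase subunit for cryptochromes, fell by 0.34 ± 0.055 (log2, n = 4 pairs, limma adjusted p = 0.0419), with differences of −0.3, −0.39, −0.39 and −0.29 in pairs 1 to 4. Sfpq, an RNA-binding cofactor of the Period complex, rose by 0.37 ± 0.117 (limma adjusted p = 0.0448). Csnk1d, the casein kinase that phosphorylates Period proteins, differed by 0 ± 0.105, and Csnk1e by 0.22 ± 0.0206 without a call. Centred on housekeeping genes Sfpq lost its call (adjusted p = 0.183), and under quantile normalization it was 0.0662.

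**Figure D4:**
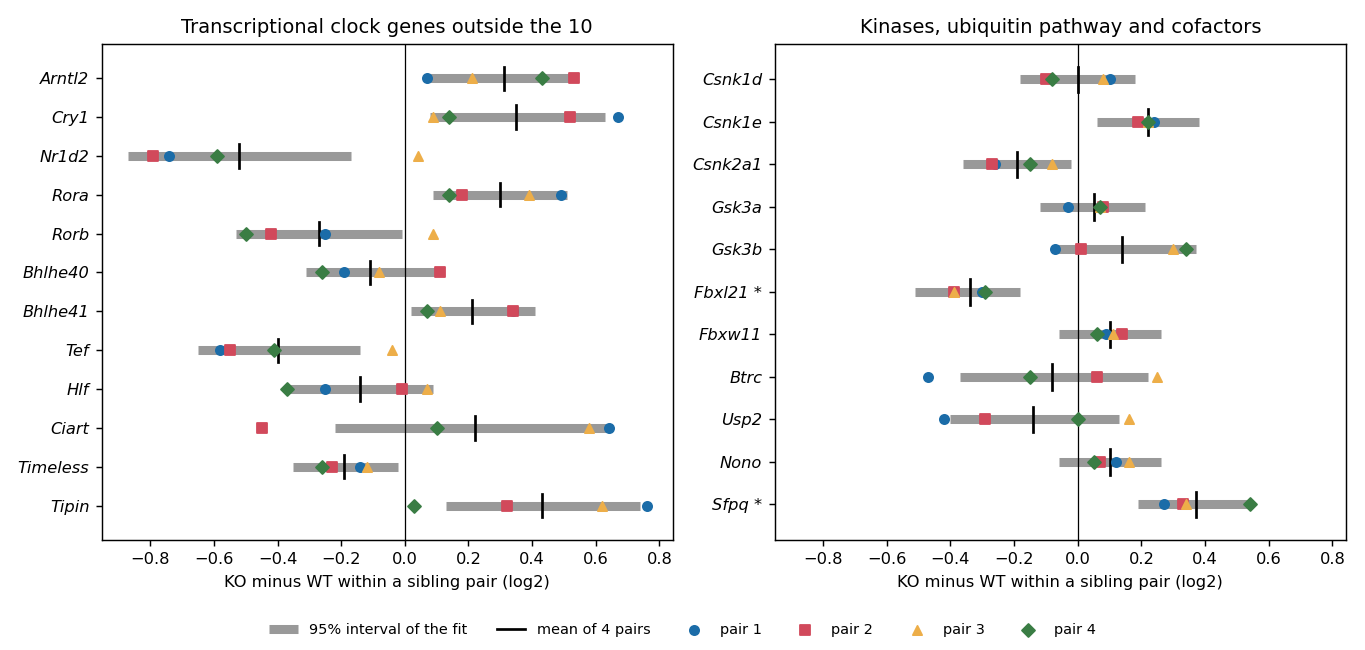
Difference between knockout and wild-type sibling (x axis, log2) for 12 other transcriptional clock genes and 11 kinases, ubiquitin pathway genes and cofactors (y axes), with pairs 1 to 4 as markers, the mean as a black line and the 95% interval of the limma fit as a grey bar. Asterisks mark Fbxl21 and Sfpq, the 2 genes with an adjusted p under 0.05. Nr1d2 and Tef lie lower in pairs 1, 2 and 4 and near 0 in pair 3.

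Genes whose expression is known to follow the clock did not share 1 direction. Of 13 rhythmic output genes of many tissues 2 rose and 1 fell, with a median difference of 0.04, where 3.16% of all probe sets rose and 2.7% fell with a median of −0.015. Nampt, which encodes the rate-limiting enzyme of NAD salvage and is an E-box target, rose by 0.79 ± 0.0695 (limma adjusted p = 0.00563), by 0.76, 0.85, 0.71 and 0.85 in pairs 1 to 4. Nampt is also induced in inflammation. Alas1, the first enzyme of haem synthesis, rose by 0.4 ± 0.117 (limma adjusted p = 0.0375), and the kinase gene Sgk1 fell by 0.7 ± 0.243 (limma adjusted p = 0.022). Of 11 transport and lipoprotein genes with daily rhythms in the gut, 1 rose and 3 fell, with a median of −0.175, against the same whole-array shares of 3.16% and 2.7%. Slc15a1, the peptide transporter gene that DBP is known to activate, fell by 0.72 ± 0.382 (limma adjusted p = 0.0418). Its differences of −0.94, −0.92, −0.15 and −0.88 were smallest in pair 3. The drug exporters Abcb1a (−1.19 ± 0.538, limma adjusted p = 0.0261) and Abcc2 (−0.9 ± 0.373, adjusted p = 0.024) fell, and the sodium-proton exchanger gene Slc9a3 rose by 1.2 ± 0.51 (adjusted p = 0.0231). The enterocyte markers had medians of −0.39, −0.23, −0.2 and −0.7 in pairs 1 to 4, with 1 of 9, the lactase gene Lct, called lower (−2.84 ± 1.38, limma adjusted p = 0.027), and their part in these falls was not tested.

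Of 7 measured genes of foreign-compound metabolism under DBP and its relatives, 1 rose and 2 fell (3.16% and 2.7% of all probe sets), with a median of −0.08. Alas1 rose, and Cyp2b10 (−2.46 ± 1.15, limma adjusted p = 0.0251) and Cyp3a11 (−2.08 ± 0.433, adjusted p = 0.00373) fell. Nr1i3, the receptor through which those factors are known to act on Cyp2b10, differed by 0.11 ± 0.357. Among 11 genes linked to glucocorticoids, the hormones that also drive Per1, 2 rose and 2 fell (3.16% and 2.7% of all probe sets), with a median of 0.065. Cebpd rose by 1.47 ± 0.218 (limma adjusted p = 0.00253), and so did Hsd11b2, whose product inactivates the hormone (0.46 ± 0.214, adjusted p = 0.0465). Sgk1 and Zbtb16 (−0.84 ± 0.436, adjusted p = 0.0368) fell. Fkbp5, a usual marker of glucocorticoid action, differed by 0.41, 0.44, 0.15 and −0.74 in pairs 1 to 4.

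The genes most like the strongest clock changes were sought by the root mean square distance between their 4 within-pair differences, over all named genes outside the 10. Nearest to Nfil3 were Capg (distance 0.0522), Eng (0.0832), Trim27 (0.0863), Banf1 (0.0901) and Psma6 (0.0973). All 5 were called, with mean rises from 0.58 for Banf1 to 0.64 for Eng. Nearest to Nr1d1 were Habp2 (distance 0.218), Mptx2 (0.225), Serpina1a (0.227), Pdzrn3 (0.247) and Gcnt1 (0.253), of which Mptx2 was not called (−0.82 ± 0.689, limma adjusted p = 0.0927). None of the 5 came as near to Nr1d1 as each of the other 5 did to Nfil3. Habp2 differed by −1.57, −1.69, −0.37 and −1.07 in pairs 1 to 4, in the same order of pairs as Nr1d1. The likeness rests on 4 pairs and is a description only.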

How the data were processed

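Arrays of 8 mice gave log2 expression values per probe set, deposited by the authors. Per the submitters' processing notes, RMA and the Transcriptome Analysis Console 4.0 were used. Their other settings were not found in the labels, nor was any step that would make pair means alike. Array medians lay between 6.77 and 6.81. The labels give the sibling pairs. Over all probe sets, the distance of a mouse from its group mean was opposite in its sibling (r from −0.913 to −0.87), and the 4 pair means had a median SD of 0.0175 against 0.179 for the within-pair differences. An SD within a group would thus repeat the spread of the differences, so values after ± are the SD of 4 within-pair differences.

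Differences were tested in R 4.3.3 with lmFit and eBayes of limma 3.58.1 (two-sided, Benjamini-Hochberg over 22206 probe sets, threshold 0.05), with the sibling pair as a block. This left 3 residual degrees of freedom. The fit was tested on simulated data. P-values measure the spread between pairs and may be too small, since differences correlated more between pairs 1 and 2 (0.682) and pairs 3 and 4 (0.673) than otherwise (0.346 to 0.421). The number of arrays limits the precision.

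Probe sets were named from the platform's annotation (19572 with 1 symbol, 0 with several, 2634 without), and where a gene had several probe sets the one with the highest mean was used. The 10 genes and all lists were chosen with earlier results of these data known. Genes were named by rule: the 10, Nfkbia, from each list the 4 largest called changes at most (or, with none called, the 2 largest) and the 5 nearest to the genes with the largest rise and fall. The remaining transcriptional clock genes were named to complete their list. Csnk1d, Csnk1e, Nr1i3, Fkbp5, Vil1, Alpi, Slc10a2, Lep, Cd3e, Cd3g, Cd8a and Uchl1 were named after their values were seen. Promoter sequences are RefSeq's (GRCm38.p6), matched by symbol. Alternatives were no block, sex, RNA integrity, array weights, a background filter, other scalings and variance settings, another threshold, each pair left out, and pairs 1 and 2 or 3 and 4 alone.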

Additional observations from a re-analysis of the deposited data

How the results depend on the processing

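With the replicate block 4 of 10 clock genes, 2 of 23 other clock genes and 1301 probe sets were called by limma. Without it, counts were 6, 13 and 7648. The block changed the calls of Arntl and Per1 among the 10 (adjusted p = 0.0221 and 0.0123 without it). The p-values without it are too small, since sibling values were not independent. With sex the counts were 2, 0 and 464 (10 of the 23 at unadjusted p under 0.05). They were 1, 0 and 364 with RNA integrity (11 of the 23), and 3, 2 and 1997 with trend and robust variance. Centring on housekeeping genes gave 6, 8 and 7495 (6.22% of them higher, against 54% before), quantile normalization 4, 1 and 1222, and a threshold of 0.1 gave 4, 7 and 3304. Leaving out 1 pair gave 0 to 3 of the 10, 0 to 1 of the 23 and 145 to 459 overall. Pairs 1 and 2 alone gave 0, 0 and 0 (7, 10 and 5278 at unadjusted p under 0.05), and pairs 3 and 4 alone 0, 0 and 26 (4, 4 and 4144). These fits hold fewer samples. The gap between the arms ran from 0.67 to 1.22 over quantile normalization, housekeeping centring, each pair left out, both sets of 2 pairs and both wider arms, and was not recomputed elsewhere.

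The sign turned for Clock centred on housekeeping genes (−0.09) and in pairs 1 and 2 alone (−0.06), for the markers Cnn1 (0.03), Tagln (0.21) and Csf1r (0.03; −0.16 to 0.03 leaving out 1 pair) in pairs 1 and 2 alone, and for Car3 (−0.15), Ms4a1 (−0.23) and Cd79a (−0.12) in pairs 3 and 4 alone. The other 9 clock genes kept their sign in all settings. Of 793 values of 53 named genes under other settings, 550 kept both sign and side of the threshold, 207 lost the call, 27 gained it and 9 turned. The cause was not tested.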
